A study of Macaca mulatta with 6 samples.

Results

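The genes of cholesterol and fatty acid synthesis were examined in naive and primed induced pluripotent stem cells (iPSCs) of the rhesus monkey. The list held 30 names, and 28 were found by gene symbol among the 30246 gene rows of each library, 2 of them under an older symbol (MSMO1 as SC4MOL and SC5D as SC5DL). Each had 1 row and all 28 passed the filter on low values, FPKM (fragments per length of transcript and per number of mapped fragments) of 1 or more in at least 2 libraries. The names without a row by symbol were ACAT2 and CYP51A1. A table of gene names pairs 1 unnamed row with ACAT2, which is described apart and stays out of the counts. CYP51A1 was not analysed here.

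RNA was sequenced from 2 female naive, 2 male naive and 2 male primed iPSC lines, and no label ties a line to a donor. Both naive groups grew in the medium labelled 6SM, whose 15% serum replacement is joined by N2 supplement, LIF at 10 ng/ml, bFGF at 4 ng/ml and the inhibitors CHIR99021 (3 µM, against GSK3), PD0325901 (0.5 µM, against MEK), SB203580 (10 µM, against p38) and SP600125 (10 µM, against JNK). Primed lines grew in hESM, with 20% serum replacement and bFGF at a dose the labels leave out. State, inhibitors, base medium and serum replacement changed together and cannot be told apart, and neither can sex and line. Feeders were taken away and colonies were collected for RNA. With n = 2 lines in each group, a p-value reflects only how far these lines differ.

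Cells build cholesterol from acetyl-CoA through mevalonate and farnesyl pyrophosphate to squalene, which is cyclized to lanosterol and then trimmed to cholesterol. Most of these enzymes are transcribed under SREBP2, the product of SREBF2, while SREBP1, from SREBF1, acts more on fatty acid genes. When sterols are plentiful, INSIG proteins hold the SREBPs and their escort SCAP in the endoplasmic reticulum. INSIG1 is itself an SREBP target. Fatty acids are made from citrate-derived acetyl-CoA by acetyl-CoA carboxylase and fatty acid synthase, then lengthened by ELOVL enzymes and given double bonds by SCD and the FADS enzymes.

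Depth differed between the groups. Effective fragments, the fragments behind the FPKM values as estimated from their deposited error bounds, summed to 8294782 and 10013491 in female naive libraries, 1754857 and 1478692 in male naive libraries and 9970137 and 7607125 in primed libraries. Rows that span under 300 bp took 11.7% to 16% of FPKM in female naive, 22.3% and 24.4% in male naive and 9.3% to 14.9% in primed libraries. The pluripotency factors POU5F1 and SOX2 were present in every library, at 109 FPKM or more and 85.3 FPKM or more. NANOG was at 73.8 and 95.9 FPKM in female naive and 28.7 and 30.7 in male naive lines, with 0.933 and 2.09 in primed lines, and LIN28A was listed at 0 in every library. Of 10 tested pluripotency markers 6 were called higher and 0 lower in naive than in primed lines.

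All 28 genes had FPKM above 0 in every library. The mean of the 3 group means ran over the members from 1.22 FPKM for ACSS2 to 124 FPKM for FDPS, with a median of 32 FPKM against 11.7 FPKM over the 13685 tested rows, and 23 members were at 10 FPKM or more. The highest were FDPS (farnesyl pyrophosphate synthase), ACLY (ATP citrate lyase, which makes cytosolic acetyl-CoA), HMGCS1 (the synthase of HMG-CoA), ELOVL5, FDFT1 and SCD. ACSS2 passed the filter through both male naive libraries and primed 2. In male naive libraries 6 members rested on fewer than 20 effective fragments: ACSS2, TM7SF2, HSD17B7, STARD4, EBP and INSIG1.

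**Figure D1:**
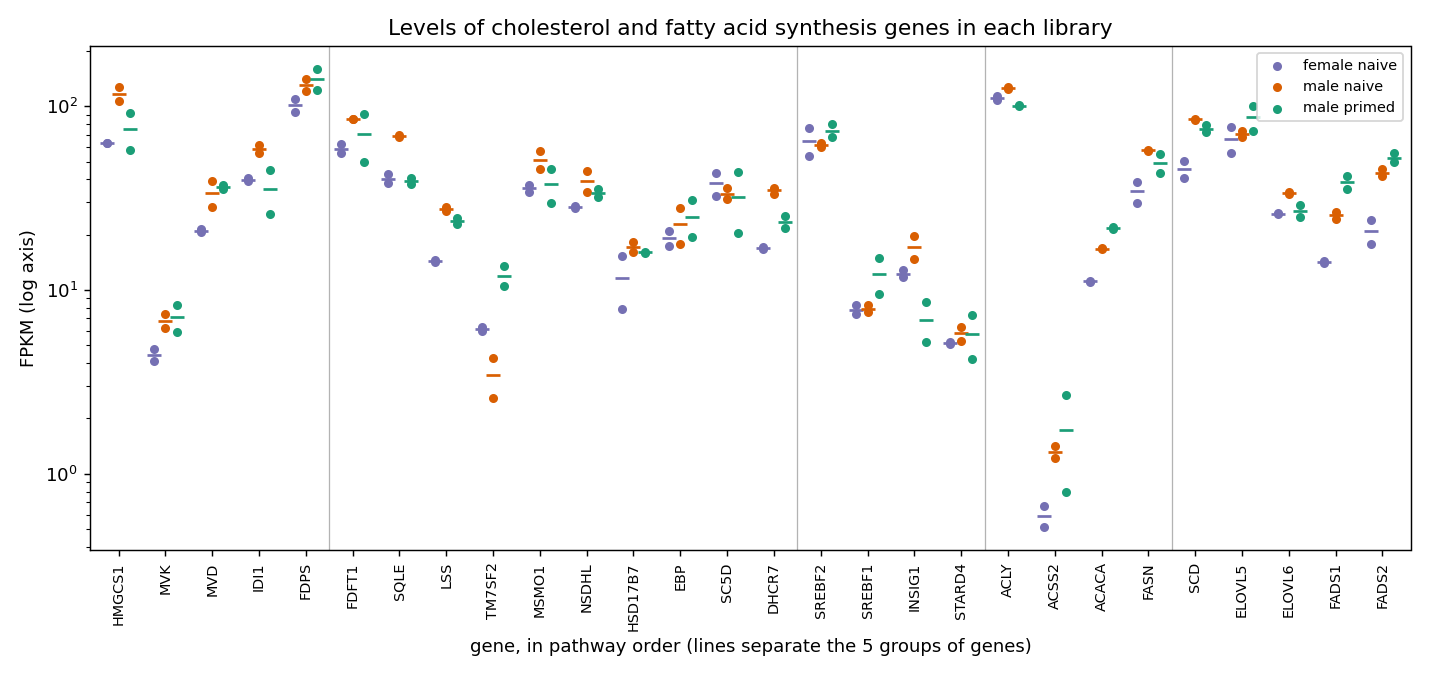
FPKM (log axis) of the 28 genes in each library, in pathway order; points are libraries, short bars are group means, and gray lines separate the 5 groups of genes. Levels span from under 1 FPKM for ACSS2 to over 100 FPKM for FDPS and ACLY, and the female naive points lie below the male naive ones for 22 genes.

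Naive against primed lines was the first comparison, with both sexes of naive line weighted equally. INSIG1, which retains SREBPs when sterols are plentiful, was higher in naive lines. ACACA (acetyl-CoA carboxylase), the front desaturases FADS1 and FADS2, and TM7SF2, a sterol C14 reductase, were lower. Limma, fitted to log2(FPKM + 1) over all tested rows, called 1 member higher and 4 lower of 28 at a Benjamini-Hochberg adjusted p under 0.05. Over all tested rows 6.72% were called higher and 4.59% lower, 11.3% in all. The counts for parts of the list, other genes and markers in this comparison stand beside these shares. All 4 naive lines were above both primed lines for 2 members and below them for 5, against 18.9% and 15.9% of tested rows. The median difference was -0.21 over the members and 0.03 over all tested rows, on the log2(FPKM + 1) scale used for every difference here, and 18 of 28 members were below 0, against 46.9% of tested rows. In bulk RNA, fewer cells of a type and less RNA per cell cannot be told apart.

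Leaving out 1 library lowered the calls among all rows and members alike. Over all tested rows 1548 were called, against 463 without female naive 1, where FADS1 was called lower, and 1081 without primed 2, where FADS1 was lower and INSIG1 and IDI1 higher. Without female naive 2, male naive 1, male naive 2 or primed 1, the rows called numbered 305, 266, 261 and 177, with no member among them. With the 4 naive lines as 1 group 250 rows and no member were called, and with array weights 920 rows and FADS1 alone. Over 18 alternative settings the difference ran from -1.38 to -0.86 for FADS1, -0.907 to -0.606 for ACACA, -1.31 to -0.685 for FADS2, -1.37 to -0.857 for TM7SF2 and 0.69 to 1.31 for INSIG1. The member median was -0.03 without primed 2, with 14 members below 0, and -0.07 without female naive 1.

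The mevalonate and isoprenoid steps gave no called member of 5 between naive and primed lines (limma; 0 higher and 1 lower at an unadjusted p under 0.05). HMGCS1 was at 63.5 and 63 FPKM in female naive and 107 and 127 in male naive lines, with 57.8 and 92.5 in primed lines. Only the male naive lines stood above both primed lines, and the difference of 0.23 (SE 0.2) had an adjusted p of 0.483. IDI1, an isomerase that makes the isoprenoid building block for prenyl chains, was at 40.8 and 39.1 FPKM in female naive and 55.4 and 61.6 in male naive lines, with 25.8 and 44.7 in primed lines. Here too the female naive lines lay between the primed lines and the male naive lines lay above both. MVK and MVD, a kinase and a decarboxylase of the mevalonate route, and FDPS had differences of -0.30, -0.44 and -0.29, each with an adjusted p over the threshold.

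Of the 10 genes from squalene to cholesterol, 0 rose and 1 fell in naive lines, with a median of 0.02. TM7SF2 (ENSMMUG00000018773, chromosome 14, 9322593 to 9326686) reduces the C14 double bond of the sterol nucleus. It was at 6.3 and 5.95 FPKM in female naive and 4.28 and 2.6 in male naive lines, with 10.5 and 13.5 in primed lines. All 4 naive lines were below both primed lines, and the gene fell by 1.21 (SE 0.23, adjusted p = 0.0276). The male naive values rested on 8.14 and 5.81 effective fragments, against 124 and 156 in primed libraries. LBR, which carries the other sterol C14 reductase activity, was at 40.3 and 31.3 FPKM in female naive and 51.5 and 48.4 in male naive lines, with 45.6 and 40.9 in primed lines (difference -0.03, adjusted p = 0.894).

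SQLE (ENSMMUG00000003535, chromosome 8, 127602501 to 127625272), the monooxygenase that opens the sterol branch after squalene, came next to the threshold, with a difference of 0.42 (SE 0.11, adjusted p = 0.0637). FDFT1 makes squalene, and it was at 62.1 and 55.7 FPKM in female naive and 85.6 and 85.7 in male naive lines, with 50 and 91.3 in primed lines. The 2 primed values of FDFT1 enclosed all 4 naive values. The same held for SC5D, a desaturase of the last steps, whose naive values of 31.2 to 43.4 FPKM lay between 20.3 and 44 FPKM in primed lines.

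Of the 4 regulators and carriers 1 rose and 0 fell. INSIG1 (ENSMMUG00000030017, chromosome 3, 192389894 to 192398263) was at 11.8 and 12.8 FPKM in female naive and 14.7 and 19.6 in male naive lines, with 5.24 and 8.58 in primed lines. All 4 naive lines were above both primed lines, with female naive means 1.78 times and male naive means 2.48 times the primed mean. INSIG1 rose by 1.00 (SE 0.23, adjusted p = 0.0438), on 15.1 and 11.1 effective fragments in male naive libraries. With upper-quartile scaling, with array weights, without the filter on low values and without the intensity trend it was not called.

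SREBF1 was at 7.37 and 8.28 FPKM in female naive and 7.56 and 8.25 in male naive lines, with 14.9 and 9.48 in primed lines. The naive lines were all below the primed lines, and the difference of -0.54 (SE 0.21) was not called (adjusted p = 0.147). SREBF2 was at 53.8 and 76.3 FPKM in female naive and 63.4 and 60.2 in male naive lines, with 67.7 and 79.7 in primed lines, with groups that overlapped (difference -0.22, SE 0.17, adjusted p = 0.419). STARD4, a sterol carrier between membranes, was at 4.22 to 7.3 FPKM over all 6 libraries.

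Of the 4 genes that make fatty acids, 0 rose and 1 fell. ACACA (ENSMMUG00000009349, chromosome 16, 47078588 to 47408885), which makes malonyl-CoA, was at 11.1 and 11.2 FPKM in female naive and 16.9 and 16.8 in male naive lines, with 21.4 and 22.2 in primed lines. The 3 pairs did not overlap and lay in that order, and ACACA fell by 0.63 in naive lines (SE 0.13, adjusted p = 0.0336). Between male naive and primed lines alone it differed by -0.35 and was not called (limma, SE 0.15, adjusted p = 0.199). FASN, the synthase that builds palmitate, was at 29.9 and 38.9 FPKM in female naive and 58.1 and 56.9 in male naive lines, with 54.9 and 43.1 in primed lines (difference -0.13, SE 0.16, adjusted p = 0.619). Its primed values lay between the naive pairs. All 4 naive values of ACLY were above both primed values, at 114 and 108 FPKM in female naive and 123 and 127 in male naive lines, with 101 and 100 in primed lines, but was not called (0.22, SE 0.1, adjusted p = 0.17). The ACLY row covers a short stretch (chromosome 16, 51969181 to 51974428, by the deposited coordinates), and a second row further along, named ACLY by the gene name table alone, was at 68.2 to 81.7 FPKM in all libraries. In that second row the naive and primed values overlapped (limma difference 0.09, SE 0.1, adjusted p = 0.594). ACSS2, which makes acetyl-CoA from acetate, was under 3 FPKM throughout.

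Elongation and desaturation held 2 of the 4 lower calls, with 0 of its 5 genes higher, against 4.59% lower and 6.72% higher over all tested rows. FADS1 (ENSMMUG00000013798, chromosome 14, 12266600 to 12280684) and FADS2 (ENSMMUG00000000327, chromosome 14, 12160946 to 12201658) are neighbours and encode the delta-5 and delta-6 desaturases of polyunsaturated fatty acids. FADS1 was at 14 and 14.3 FPKM in female naive and 24.5 and 26.5 in male naive lines, with 35.4 and 41.9 in primed lines. FADS2 was at 17.8 and 23.9 FPKM in female naive and 45.5 and 41.7 in male naive lines, with 49.9 and 55.4 in primed lines. For both genes the female naive pair was lowest, the male naive pair next and the primed pair highest, with no overlap.

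FADS1 fell by 0.98 (SE 0.13, adjusted p = 0.0137) and FADS2 by 0.79 (SE 0.15, adjusted p = 0.0304). Between male naive and primed lines alone, limma called neither. There FADS1 differed by -0.58 (SE 0.15, adjusted p = 0.0827) and FADS2 by -0.27 (SE 0.18, adjusted p = 0.397). FADS1 kept its call in 13 of 18 alternative settings, the most of any called member. The 3 other genes of this group, SCD (-0.29), ELOVL5 (-0.34) and ELOVL6 (0.13), were not called. ELOVL5, which lengthens polyunsaturated chains, had its highest value of 101 FPKM in primed 1, and the other 5 libraries were at 56 to 77.3 FPKM.

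Some markers of other cell types also differed between naive and primed lines. Of 7 tested neural markers 0 were called higher and 4 lower in naive lines. The 10 neural markers found summed to 200 and 301 FPKM in female naive and 371 and 339 in male naive lines, with 698 and 896 in primed lines, and 408 and 634 FPKM of the primed sums were CRABP1. NES made up 166 and 263 FPKM of the female naive sums and 244 and 229 of the male naive sums, with 165 and 170 in primed lines. The NES row was not tested, and its value in female naive 2 rested on 0.332 effective fragments. NEUROG2 was at 0 in all 4 naive libraries and NEUROD1 in 3 of the 6 libraries. The 7 adipocyte markers, with ADIPOQ at 0 in every library, summed to 266 and 232 FPKM in female naive and 171 and 280 in male naive lines, with 32.5 and 94.4 in primed lines, and 1 of 2 tested was called higher. That 1 was FABP4, whose row on chromosome 1 made up most of the adipocyte sum in every library. FABP4 was at 264 and 228 FPKM in female naive and 170.2 and 279 in male naive lines, with 29.4 and 92.4 in primed lines. These values rested on only 4 to 32 effective fragments. LPL, the other tested marker, differed by -0.14. Of 10 tested endoderm and liver markers 0 were called higher and 1 lower. The 15 found summed to 225 and 38.9 FPKM in female naive and 57.7 and 55.8 in male naive lines, with 97.3 and 50.01 in primed lines, and female naive 1 had 133 FPKM of CER1 and 53.6 of CXCR4. Of 4 trophoblast and amnion markers none was called (1 higher and 0 lower at an unadjusted p under 0.05). The part of these markers in the differences was not tested.

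**Figure D2:**
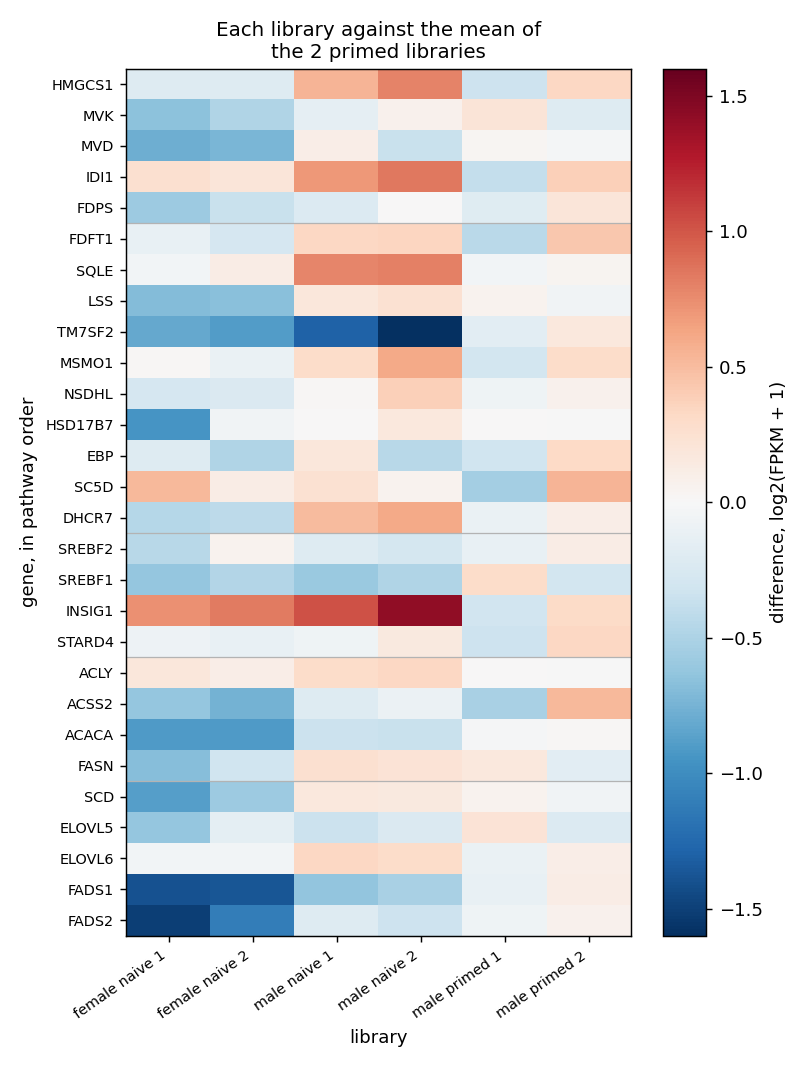
Difference of each library from the mean of the 2 primed libraries on the log2(FPKM + 1) scale, with genes down the page in pathway order. FADS1, FADS2 and ACACA are blue in all 4 naive libraries, INSIG1 is red in all 4, and HMGCS1 and DHCR7 are red in the male and blue in the female naive libraries.

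Male naive against male primed lines leaves sex out, but depth and the share of FPKM in short rows still differed. Their part was not tested. SQLE was at 68 and 69.6 FPKM in male naive and 38 and 40.5 FPKM in primed lines, 1.75 times as high. It rose by 0.80 (SE 0.13, adjusted p = 0.027). TM7SF2 fell by 1.56 (SE 0.26, adjusted p = 0.0288), to 0.287 of the primed mean. These were the only called members, 1 higher and 1 lower of 28, where 3.97% of all tested rows were called higher and 1.42% lower, 5.39% in all.

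Several other sterol genes lay above both primed lines in the male naive lines without being called. INSIG1 differed by 1.22 (SE 0.26, adjusted p = 0.0546), IDI1 by 0.76 (SE 0.25, adjusted p = 0.13), HMGCS1 by 0.66 (SE 0.23, adjusted p = 0.142) and DHCR7 by 0.55 (SE 0.15, adjusted p = 0.0867). In all, 10 members were above and 7 below both primed lines, where 34.8% and 21.6% of tested rows were. The member median was 0.12 against 0.09 over all tested rows, and 12 of 28 members were below 0, against 42.1% of tested rows. With upper-quartile scaling the medians were -0.04 and -0.06, and with quantile normalization -0.03 and -0.02. In both settings 16 of 28 members were below 0.

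Without primed 2 the calls were HMGCS1, IDI1, INSIG1 and SQLE, all higher. In that fit 626 of all tested rows were called, against 738 with all libraries. Leaving out any other single library left no called member and 51 to 352 called rows, and fitting these 4 libraries alone left no called member and 348 called rows. Over 17 alternative settings the difference ran from 0.59 to 0.84 for SQLE and from -1.84 to -1.29 for TM7SF2.

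ACAT2, cytosolic acetoacetyl-CoA thiolase at the entry to the mevalonate route, was the row named by the gene name table (ENSMMUG00000012843). It was at 60.7 and 63.2 FPKM in female naive and 105 and 110 in male naive lines, with 50.7 and 50.7 in primed lines. The 3 pairs did not overlap, with the male naive pair highest. All 4 naive values were above both primed values, and ACAT2 rose by 0.68 in naive lines (SE 0.10, adjusted p = 0.0159), beside the call of INSIG1. ACAT2 was 1.07 higher in male naive than in primed lines (SE 0.11, adjusted p = 0.00868), and between female and male naive lines it fell by 0.79 (SE 0.11, adjusted p = 0.025).

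Female naive lines were lower than male naive lines, grown in the same medium, in genes of both branches. DHCR7 and LSS of sterol synthesis, SQLE, the stearoyl-CoA desaturase SCD and FADS2 fell. Of 28 members, limma called 0 higher and 5 lower (1 and 12 at an unadjusted p under 0.05), where 0.76% of all tested rows were called higher and 2.55% lower, 3.31% in all. The median difference was -0.53 over the members and -0.10 over all tested rows. Of the members 25 had a difference below 0, against 60.8% of tested rows, and 22 had both female values below both male values, against 37.6%.

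DHCR7 (ENSMMUG00000011976, chromosome 14, 3469794 to 3479640), the reductase that makes cholesterol from 7-dehydrocholesterol, was at 16.8 and 17.2 FPKM in female naive and 33.5 and 36.1 in male naive lines, with 21.7 and 25.2 in primed lines. It fell by 0.99 (SE 0.15, adjusted p = 0.0297). LSS (ENSMMUG00000022329, chromosome 3, 557390 to 594328) cyclizes the epoxide of squalene to lanosterol. It was at 14.3 and 14.5 FPKM in female naive and 27 and 28.1 in male naive lines, with 24.6 and 22.8 in primed lines, and fell by 0.89 (SE 0.14, adjusted p = 0.0341). For both genes the primed pair lay between the naive pairs, as it did for FASN and SCD, 4 members in all against 3.73% of tested rows.

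SQLE was at 38 and 42.8 FPKM in female naive and 68 and 69.6 in male naive lines and fell by 0.76 (SE 0.13, adjusted p = 0.0386). The female naive values of SQLE overlapped those of primed lines. SCD (ENSMMUG00000010817, chromosome 9, 99954226 to 99968248), which puts the first double bond into saturated chains, was at 40.6 and 50.1 FPKM in female naive and 85.4 and 84.3 in male naive lines, with 78.6 and 72.8 in primed lines. SCD fell by 0.90 (SE 0.14, adjusted p = 0.0348). FADS2 fell by 1.04 (SE 0.18, adjusted p = 0.0383), to 0.479 of the male naive mean, the largest difference among the 5, and kept its call in 3 of 17 alternative settings, against 11 for DHCR7.

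Beyond the calls, all 5 mevalonate genes, all 4 fatty acid synthesis genes and 4 of 5 elongation and desaturation genes had both female values below both male values. Of the 10 genes from squalene on 7 did. HMGCS1 (-0.87, SE 0.23, adjusted p = 0.102), FADS1 (-0.80, SE 0.15, adjusted p = 0.0508) and FASN (-0.74, SE 0.19, adjusted p = 0.093) were not called. Of the transcription factors, SREBF2 differed by 0.05 (SE 0.19, adjusted p = 0.909) and SREBF1 by -0.01 (SE 0.25, adjusted p = 0.983). TM7SF2 was the 1 member with both female values above both male values, at 6.3 and 5.95 against 4.28 and 2.6 FPKM, and was not called (0.71, SE 0.26, adjusted p = 0.192). The X-linked members NSDHL and EBP, a sterol dehydrogenase and a sterol isomerase, differed by -0.45 (SE 0.17, adjusted p = 0.192) and -0.21 (SE 0.3, adjusted p = 0.732).

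The calls in this comparison moved with the scaling and the libraries, over all rows too. Of all tested rows 453 were called, against 325 with upper-quartile and 333 with median-of-ratios scaling, where DHCR7 was the 1 member called. After rescaling without short rows 404 rows were called, DHCR7, LSS and SCD among them, and with quantile normalization 341 rows and no member. Without any one of the 4 naive libraries 41 to 68 rows and no member were called. Over 17 alternative settings the difference ran from -1.04 to -0.845 for DHCR7, -0.934 to -0.745 for LSS, -1.05 to -0.747 for SCD, -0.839 to -0.608 for SQLE and -1.24 to -0.838 for FADS2. Upper-quartile, quantile and median-of-ratios scaling moved the median over all tested rows to 0.01, 0.01 and 0.03, and the member medians were then -0.41, -0.38 and -0.39, with 23, 22 and 23 members below 0. SREBF1 and ELOVL5 turned above 0 under all 3, and STARD4 under quantile normalization. Beside these differences, 4 of 10 pluripotency markers were called higher and 0 lower, 0 of 7 neural markers higher and 3 lower, and 0 of 15 fibroblast markers higher and 2 lower; of 10 endoderm and liver markers 0 were called in either direction (0 at an unadjusted p under 0.05), with female naive 1 at 225 FPKM in sum and female naive 2 at 38.9. Over all tested rows 0.76% were called higher and 2.55% lower. The part of these markers, like that of depth, was not tested.

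**Figure D3:**
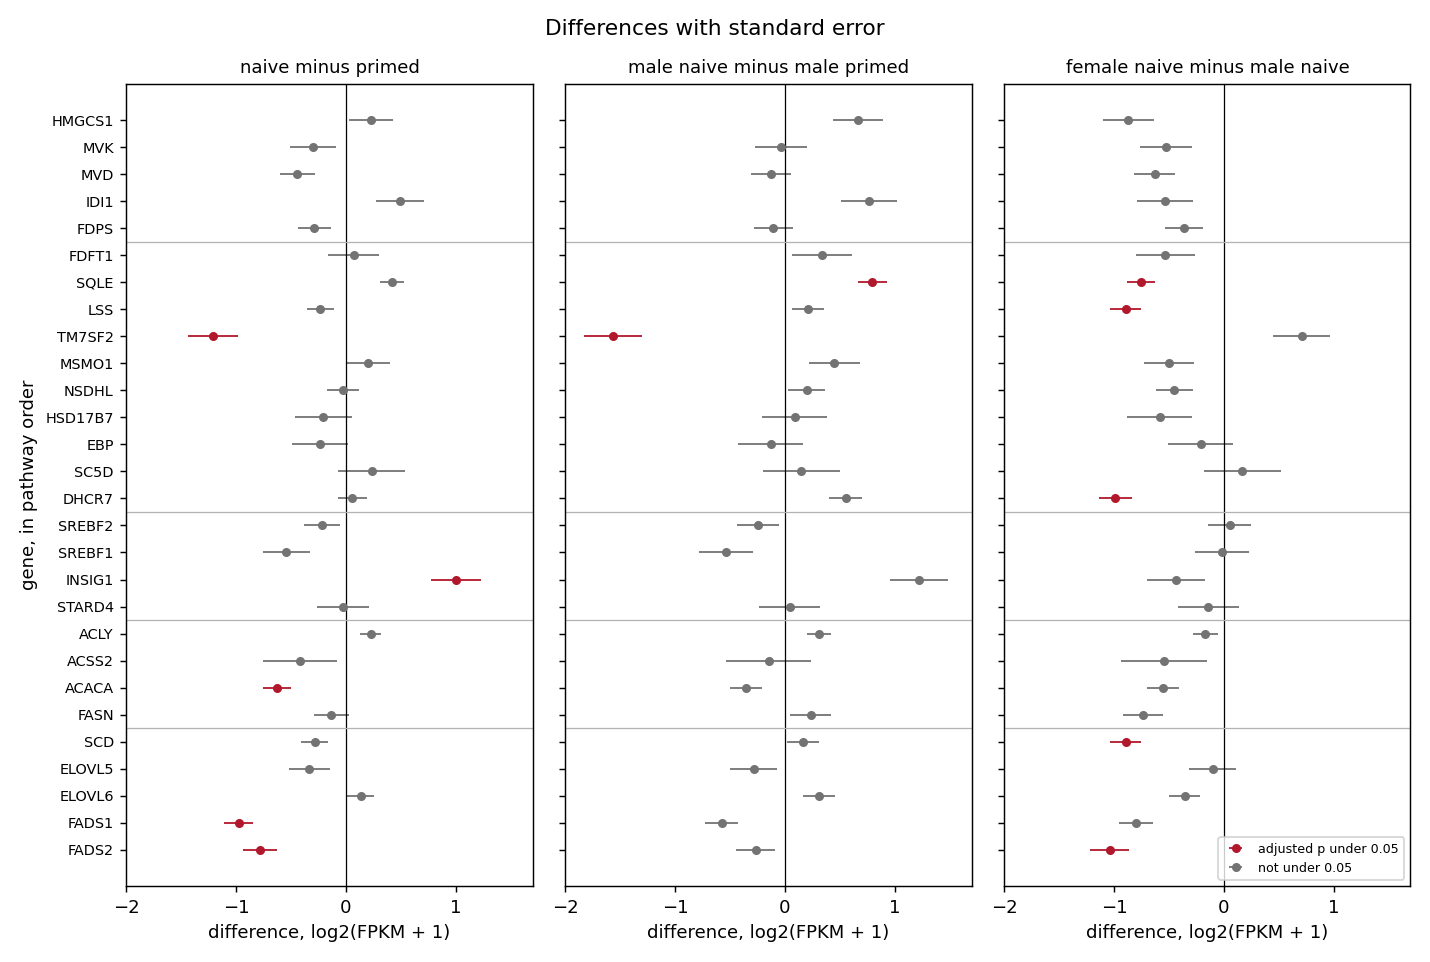
Difference (dot) and standard error (bar) of each gene on the log2(FPKM + 1) scale in the 3 comparisons; red marks an adjusted p under 0.05. In the female naive minus male naive panel 25 of 28 dots lie left of 0, against 12 in the male naive minus male primed panel.

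**Figure D4:**
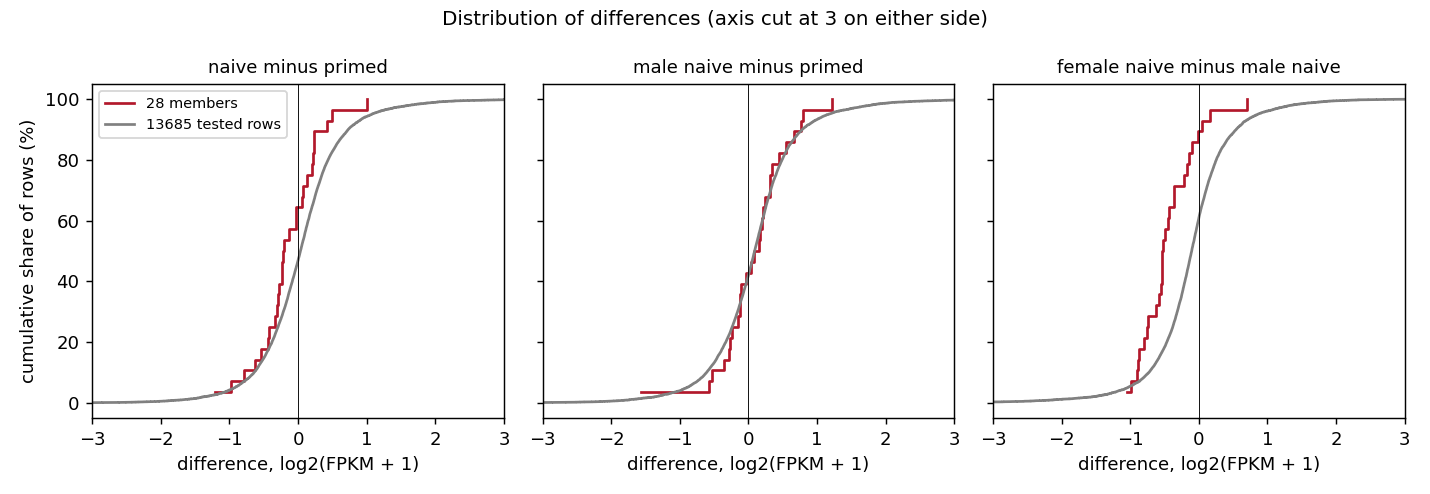
Cumulative share of genes by difference for the 28 members (red) and the 13685 tested rows (gray) in the 3 comparisons. The red curve lies left of the gray one for female against male naive lines, with medians of -0.53 and -0.10, and close to it for male naive against primed lines, with medians of 0.12 and 0.09.

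The 2 primed lines had unlike levels of several sterol genes, compared here as single libraries with no test. In primed 2 the level was 2.17 times that in primed 1 for SC5D, 1.83 times for FDFT1, 1.73 times for IDI1, 1.64 times for INSIG1 and 1.6 times for HMGCS1. Over the members 19 of 28 were higher in primed 2, with a median log2 difference of 0.22, where 50.9% of tested rows were higher and the median was 0.01. Of the 10 genes from squalene on 8 were higher in primed 2, and 2 of the 4 fatty acid synthesis genes. For male naive against primed lines the standard error was 0.23 for HMGCS1 and 0.25 for IDI1, against 0.13 for SQLE, whose primed values were 38 and 40.5 FPKM.

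Fibroblast and feeder markers differed between the same 2 libraries. The 18 markers found summed to 1647 and 2140 FPKM in female naive and 2480 and 2105 in male naive lines, and to 2075 in primed 2 and 1275 in primed 1. TAGLN alone was at 938 and 1534 FPKM in female naive and 1669 and 1450 in male naive lines, with 873 in primed 2 and 512 in primed 1. The matrix genes COL3A1 and LUM were at 28.6 and 19.9 FPKM in primed 2, against 0.414 and 0.111 FPKM in primed 1. In naive lines COL3A1 was at 4.64 to 7 FPKM and LUM at 0.0739 to 3.85. VIM, PDGFRA and PDGFRB went the other way, at 501, 0.736 and 4.39 FPKM in primed 2 against 642, 0.845 and 5.2 in primed 1. DCN and FAP were at 0 in both male naive libraries, none of the 18 was at 0 in every library, and between naive and primed lines 0 of 15 tested were called higher and 1 lower. Their part in the difference between the primed lines was not tested.

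Of 8 other tested genes of sterol synthesis, 0 were called between naive and primed lines (0 higher and 1 lower at an unadjusted p under 0.05).

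Genes of sterol sensing, uptake and export gave 1 higher and 2 lower of 17 in naive lines, against 6.72% and 4.59% of all tested rows. SCAP, the SREBP escort, was at 7.64 and 6.82 FPKM in female naive and 15.7 and 10.3 in male naive lines, with 23.7 and 21.7 in primed lines. It fell by 1.16 (SE 0.2, adjusted p = 0.0229), with all naive values below both primed values. MYLIP, a ubiquitin ligase that is induced by the sterol sensor LXR, rose by 1.28 (SE 0.18, adjusted p = 0.0146). INSIG2 differed by -0.47 (adjusted p = 0.416).

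In the same list, MYLIP and ABCA1, a cholesterol exporter that LXR also induces, were called higher in female than male naive lines, and 0 of 17 were lower. Over all tested rows 0.76% were called higher and 2.55% lower. MYLIP was at 14.5 and 14.8 FPKM in female naive and 6.27 and 4.81 in male naive lines, with 3.07 and 3.25 in primed lines, a rise of 1.27 (SE 0.21, adjusted p = 0.0359) between the naive groups. ABCA1 was at 8.41 and 14.2 FPKM in female naive and 3.17 and 2.61 in male naive lines, with 6.71 and 5.42 in primed lines. It rose by 1.62 (SE 0.29, adjusted p = 0.0415). Both genes were highest in the female naive pair, and their male naive values rested on 10 to 22.6 effective fragments. The LXR genes NR1H2 and NR1H3 were not called in any of the 3 comparisons.

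Fatty acid genes outside the list were mixed. Of 21 others of synthesis 2 rose and 1 fell in naive lines, against 6.72% and 4.59% of all tested rows. ME1, a malic enzyme that supplies NADPH, was at 8.27 and 7.78 FPKM in female naive and 7.24 and 5.58 in male naive lines, with 1.15 and 3.4 in primed lines. It rose by 1.40 (SE 0.32, adjusted p = 0.0423). PTPLA, a dehydratase family member of chain elongation, rose by 2.05 (SE 0.35, adjusted p = 0.0228). ELOVL2, which lengthens long polyunsaturated chains after the FADS steps, fell by 1.09 (SE 0.26, adjusted p = 0.0497), at 4.28 and 2.43 FPKM in female naive and 7.79 and 5.82 in male naive lines, with 9.5 and 13.1 in primed lines. Its groups stood in the same order as those of FADS1 and FADS2.

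Of 11 glycerolipid genes AGPAT2, an acyltransferase of phosphatidic acid synthesis, rose by 1.61 (SE 0.19, adjusted p = 0.0102) and LPIN2, a phosphatidate phosphatase, fell by 0.84 (SE 0.17, adjusted p = 0.0312). Of 20 tested fatty acid oxidation genes 1 rose and 0 fell, the 1 being ACAA2, a mitochondrial thiolase, with a difference of 0.58 (SE 0.11, adjusted p = 0.0264). Both lists stand beside 6.72% called higher and 4.59% called lower over all tested rows. ACAA2 was at 66.2 and 67.2 FPKM in female naive and 43.7 and 44.4 in male naive lines, with 34.6 and 37.4 in primed lines.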

How the data were processed

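The authors deposited FPKM for every gene row and library, each with an error interval and a status flag. TopHat 1.3.0 was the aligner named in the submitters' processing notes. The build, annotation and quantifier version were not given in the sources used here. Starts are printed 1 base above those in the files, whose layout counts from 0. Effective fragments are (2 × FPKM / (upper bound − FPKM)) squared. They do not cover the spread between lines and are not read counts. NES had 8589 at 166 FPKM in female naive 1 and 0.332 at 263 FPKM in female naive 2. Of 30246 rows, 40 had a failed status and 13685 were tested, with limma 3.58.1 in R 4.3.3 on log2(FPKM + 1), a mean per group, an intensity trend and two-sided tests, checked on simulated data. Such differences understate the change of low genes. HSD17B7 and FDPS have pseudogene copies in human, and how shared reads were split is not stated. Members and lists were chosen with earlier results of these data known. The naming rule took all members, POU5F1, NANOG and SOX2, SCAP, INSIG2 and a few other fixed genes, and up to 4 genes of each other pathway list with the smallest p; the other markers and NR1H2 and NR1H3 were named after their values were seen. Some genes that this rule names are not reported here. Scaling, filter, pseudocount, weights, trend, block and left-out libraries were varied.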

Additional observations from a re-analysis of the deposited data

Results flagged for a closer look

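For 4 members every male naive value lay above both primed values and every female naive value below them, a pattern that 3.73% of tested rows also had. The pattern itself was not tested, and choosing genes by it fixes the sign of the difference between the naive groups. That difference on the log2 scale was -0.991 for DHCR7, -0.893 for LSS, -0.896 for SCD and -0.736 for FASN. Male naive against primed lines was called by limma for none of the 4, with adjusted p = 0.0867 for DHCR7, 0.405 for LSS, 0.521 for SCD and 0.471 for FASN. The pattern was read from FPKM without rescaling. With upper-quartile scaling and with quantile normalization the male naive minus primed difference of SCD turned below 0. Sex, line and depth differed together between the naive groups and cannot be told apart, and no female primed line was analysed here.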

How the results depend on the processing

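Between naive and primed lines the count of members called higher was 0 without the filter, with upper-quartile scaling, with both sexes as 1 group, with array weights, without the intensity trend and without both male naive libraries. The count called lower was 0 with both sexes as 1 group, 1 with array weights and 2 without both male naive libraries, where the median was -0.411. Without 1 library each, higher calls ran from 0 to 2, lower calls from 0 to 1 and the median from -0.233 to -0.0272. For male naive against primed lines, higher calls were 2 at a minimum of 5 FPKM and 0 with quantile normalization, without the trend and in the libraries compared alone, and lower calls 0 without the filter and in those libraries alone. Without 1 library each, higher calls ran from 0 to 4 and lower calls were 0 throughout. For female against male naive lines, lower calls were 3 without the filter or after rescaling without short rows, 1 with upper-quartile or median-of-ratios scaling, 0 with quantile normalization, 8 with array weights and 2 without the trend, and ran from 0 to 6 without 1 library each. Each called member kept its sign in all 17 or 18 settings, and no member had several rows by symbol to sum. Libraries with the same line number deviated with r = -0.0605, -0.0495 and -0.263 between groups. With n = 2 lines in each group, this cannot show whether lines of equal number share a donor or batch, and no label says so. With the replicate block the counts were 1 higher and 1 lower between naive and primed lines and 0 in both other comparisons. Among called members depth was lowest for TM7SF2 and INSIG1, with 5.81 to 15.1 effective fragments in male naive libraries.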
